A study of Mus musculus with 24 samples.

Results

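The genes described here are the 32 members of the cholesterol and fatty acid synthesis programme: 5 regulators of the sterol regulatory element binding proteins (SREBPs), 7 enzymes of the mevalonate and isoprenoid steps, 12 genes of the squalene and sterol steps including the sterol carrier Stard4, 4 genes of fatty acid synthesis and 4 desaturases. They were taken by gene symbol from a count table of 56748 genes, and all 32 were found and passed the filter on low counts in both cell types. Cells lay in 8 groups of 3 libraries, numbered as biological replicates 1 to 3. Myoblasts and fibroblasts came from the hindlimb muscle of newborn mice, either C57 (C57BL/10) or mdx (C57BL/10-Dmdmdx), the strain with a mutated dystrophin gene. Myotubes, the fused cells formed from myoblasts, were given 1 µM aldosterone or 0.001% DMSO as vehicle for 48 h, with the serum stripped by charcoal, and all of them then received fresh medium for 15 h before lysis. That fresh medium was put on fibroblasts of the same strain for 24 h, so every fibroblast library saw conditioned medium, either from aldosterone-treated or from vehicle-treated myotubes (below, aldosterone medium and vehicle medium). A fibroblast's own strain and the strain behind its medium cannot be told apart. The labels do not say how many animals gave each culture, and p-values measure the spread between these cultures.

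SREBPs are transcription factors held in the membrane of the endoplasmic reticulum. When sterols are scarce, Scap escorts them to the Golgi, where proteases free the active part, and when sterols are plentiful Insig1 and Insig2 retain Scap. Srebf2 is known mainly for sterol genes and Srebf1 mainly for fatty acid genes. Muscle fibres burn fatty acids as a fuel and also need sterols and fatty acids for their membranes.

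Promoter sequence is shown first for 6 members: Hmgcs1, the only matched member with the SREBP element searched for in its first listed window, Dhcr7, Ebp and Insig2, which were higher in myotubes than in fibroblasts, and Lss and Elovl6, which were among the furthest below. The sequences are the 250 bases before the first listed start in RefSeq on GRCm38.p6, not the build of the counts (mm39), written 5′ to 3′ on the gene's strand. Capitals mark an SREBP element (TCACNCCAC), an NF-Y box (CCAAT) or a GC box (GGGCGG) on either strand, and these matches did not overlap in the windows shown.
Hmgcs1 (chr13:119690101-119690350, plus strand): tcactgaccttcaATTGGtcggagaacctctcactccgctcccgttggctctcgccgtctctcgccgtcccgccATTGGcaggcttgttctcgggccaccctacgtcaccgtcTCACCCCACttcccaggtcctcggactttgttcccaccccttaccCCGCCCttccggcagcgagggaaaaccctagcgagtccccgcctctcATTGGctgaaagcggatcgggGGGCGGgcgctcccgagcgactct
Dhcr7 (chr7:143822917-143823166, plus strand): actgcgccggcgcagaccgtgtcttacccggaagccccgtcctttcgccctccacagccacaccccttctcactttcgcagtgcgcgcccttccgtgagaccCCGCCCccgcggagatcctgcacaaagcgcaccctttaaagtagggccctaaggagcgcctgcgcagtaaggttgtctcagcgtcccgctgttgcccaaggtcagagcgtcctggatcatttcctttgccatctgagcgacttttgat
Ebp (chrX:8193513-8193762, minus strand): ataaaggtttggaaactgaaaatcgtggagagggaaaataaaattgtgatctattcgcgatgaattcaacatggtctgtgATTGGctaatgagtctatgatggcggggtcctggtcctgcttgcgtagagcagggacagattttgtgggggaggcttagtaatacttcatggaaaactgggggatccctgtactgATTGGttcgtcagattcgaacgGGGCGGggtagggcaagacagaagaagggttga
Insig2 (chr1:121332590-121332839, minus strand): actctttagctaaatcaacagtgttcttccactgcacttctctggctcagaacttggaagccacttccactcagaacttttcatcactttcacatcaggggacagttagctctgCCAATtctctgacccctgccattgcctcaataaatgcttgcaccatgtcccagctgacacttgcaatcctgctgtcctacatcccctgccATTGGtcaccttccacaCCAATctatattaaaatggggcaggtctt
Lss (chr10:76531355-76531604, plus strand): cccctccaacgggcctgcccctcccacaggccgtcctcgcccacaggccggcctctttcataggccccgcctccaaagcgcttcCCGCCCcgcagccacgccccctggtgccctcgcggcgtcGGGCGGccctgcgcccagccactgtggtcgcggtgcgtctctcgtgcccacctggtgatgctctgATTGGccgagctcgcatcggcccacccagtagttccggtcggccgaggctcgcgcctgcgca
Elovl6 (chr3:129532136-129532385, plus strand): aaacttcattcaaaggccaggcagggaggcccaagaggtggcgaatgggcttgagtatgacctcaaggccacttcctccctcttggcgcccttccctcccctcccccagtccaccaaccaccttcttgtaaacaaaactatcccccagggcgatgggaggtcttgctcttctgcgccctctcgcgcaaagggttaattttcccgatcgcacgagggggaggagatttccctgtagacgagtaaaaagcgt

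RefSeq windows matched 25 of the 32 members. The SREBP element was found in 1 of 25, in Hmgcs1 as TCACCCCAC from 137 to 129 bases before the start, against 1.036% of the windows of 27025 genes. The NF-Y box was present in 18 of 25 windows (72%), against 34.46% of all windows, and the GC box also in 18 of 25, against 32.94%. Of the 3 genes higher in myotubes, Dhcr7 had 1 GC box and no NF-Y box in its first window, Ebp had 2 NF-Y boxes and 1 GC box, and Insig2 had 3 NF-Y boxes in its first. Of the 2 lower genes, Lss held 1 NF-Y box and 2 GC boxes, and Elovl6 held no match. Dhcr7 and Insig2 each have 3 listed starts, and their other windows differed from the first. Window 3 of Dhcr7 held 2 NF-Y boxes and 3 GC boxes and its window 2 held neither, while windows 2 and 3 of Insig2 held 0 NF-Y boxes and 1 GC box each. The shares given here use the first listed window of every gene. A myogenic E-box (CAGCTG) was found in 3 of 25 windows (12%), those of Insig2, Idi1 and Msmo1, against 12.77% of all windows. The corticosteroid receptor element (GNACA and TGTNC with 3 bases between), the palindrome bound by the receptors of aldosterone and of glucocorticoids, was found in 0 of 25 windows, against 0.3811% of all. These letter matches describe the windows only.

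Libraries held 14133165 to 31144746 counts in myotubes and 16964960 to 42698139 in fibroblasts. The cell types matched their labels: the summed level of 8 myotube markers was 18812 to 31362 CPM (the count relative to the TMM-scaled library size) in myotubes and 11.4 to 104 CPM in fibroblasts, although Tnnc2 among them was near 0 in every group. The summed level of 8 fibroblast markers was 11982 to 20665 CPM in fibroblasts. In myotubes it was 345 to 1098 CPM in C57 and 944 to 3675 CPM in mdx, highest in mdx culture 2. Macrophage markers summed to 94.4 to 194 CPM in C57 myotube cultures 2 and 3, against 5.18 and 7.04 CPM in culture 1 and at most 75.5 CPM in mdx. Endothelial markers summed to 77.9 to 233 CPM in C57 myotubes and 29.1 to 66.9 CPM in mdx myotubes.

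Levels can be set side by side between genes only per length. On that scale, CPM per kilobase, the desaturase Scd2 stood highest of the 32 in all vehicle groups, at 93.5 ± 8.55 (SD, n = 3) in C57 fibroblasts and 49.1 ± 2.76 in C57 myotubes. Next in fibroblasts came Acly, which makes cytosolic acetyl-CoA, at 52.3 ± 2.82. Insig1 and Fasn followed at 35.4 ± 7.10 and 35.1 ± 1.60, values within each other's spread. Lowest was Fdps, the farnesyl diphosphate synthase, at 1.07 ± 0.242 in C57 fibroblasts and 0.441 ± 0.134 in C57 myotubes. This low value is uncertain, because 86.42% of the 50-base stretches of its transcript also occur in transcripts of 8 other genes. Acaca (52.56% shared, with Gm5182), Acat2 (45.89%, with Acat3), Fdft1 (30.72%, mostly with the overlapping gene Ctsb) and Idi1 (30.52%) are uncertain in the same way. Dhcr7, Ebp, Insig2 and Fasn share none. The libraries were not strand-specific, so Srebf1, Fdft1 and Cyp51, which overlap Rai1, Ctsb and Akap9 on the opposite strand, and Tm7sf2, which overlaps Vps51, may hold reads of those neighbours.

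In vehicle cultures most members were lower in myotubes than in fibroblasts. In C57, 26 of 32 were lower and 3 higher, against a background of 37.2% lower and 37.5% higher among the 17435 genes tested. In mdx, 25 were lower and 3 higher, against 34.7% and 36.2%. The same 25 members were lower and the same 3 higher in both strains, and the median log2 change over the 32 was -0.78 in C57 and -0.74 in mdx, against 0.00 and -0.01 over all genes. Groups did not overlap for 24 members lower and 3 higher in C57, against 41.1% and 38.4% of all genes, and for 27 lower and 3 higher in mdx, against 36.4% and 36.3%. In bulk RNA, fewer cells of a type and less RNA per cell cannot be told apart. Fibroblast medium and cell type also changed together, since only fibroblasts received conditioned medium. Proliferation markers in vehicle cultures summed to 281 to 296 CPM in C57 fibroblasts and 18.2 to 41.02 CPM in C57 myotubes. In mdx they summed to 330 to 466 and 19.3 to 58.4 CPM. Adipocyte markers summed to 14.1 to 21.5 and 4.48 to 10.98 CPM in C57, and to 16.7 to 28.1 and 4.50 to 6.94 CPM in mdx. The part of these differences in the member levels was not tested.

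**Figure D1:**
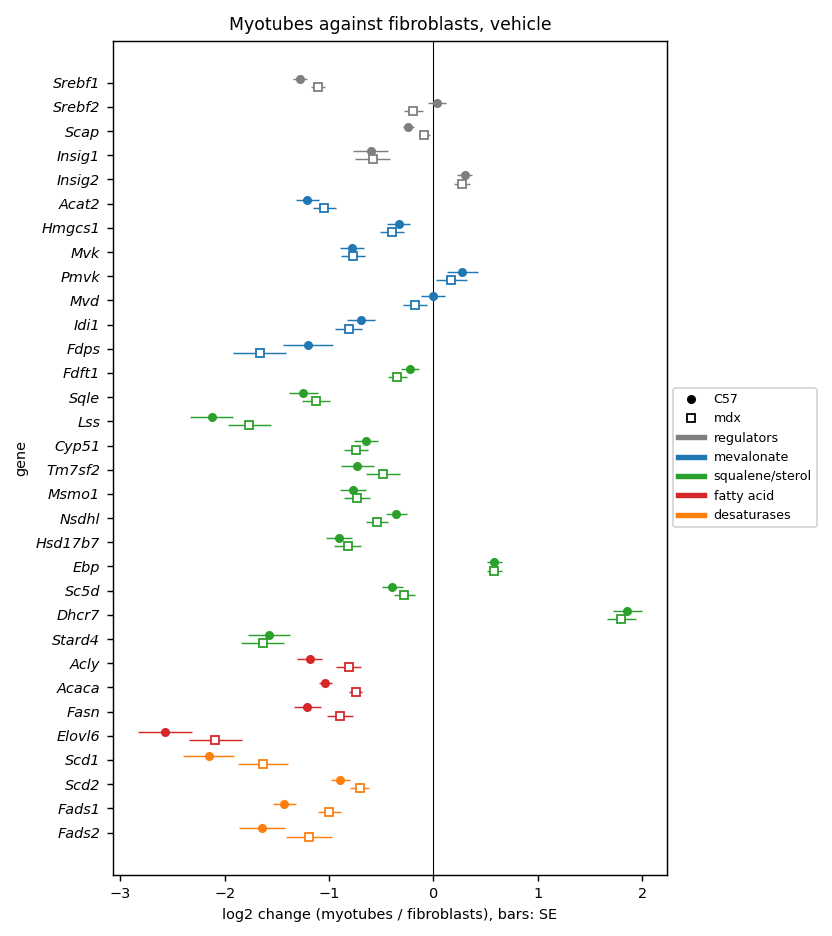
Log2 change of the 32 members in myotubes against fibroblasts, both in vehicle cultures, with bars for the standard error; filled circles are C57, open squares mdx, and colours are roles. Dhcr7 (1.86 and 1.80), Ebp (0.58 in both) and Insig2 (0.30 and 0.27) lie to the right, and all 4 fatty acid synthesis genes and all 4 desaturases lie to the left.

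Dhcr7 (ENSMUSG00000058454, chromosome 7, 143376882 to 143402147), a reductase of the last steps of cholesterol synthesis, went furthest the other way from the rest. Its level was 88.1, 80.0 and 80.8 CPM in the 3 C57 vehicle myotube cultures and 19.8, 27.0 and 23.9 CPM in the C57 vehicle fibroblasts. In mdx it was 67.2, 77.1 and 89.5 CPM in myotubes and 26.5, 19.7 and 22.0 CPM in fibroblasts. Every myotube library was above every fibroblast library of these groups, with a log2 change of 1.86 ± 0.14 (SE; edgeR, adjusted p = 1.17e-07) in C57 and 1.80 ± 0.14 (edgeR, adjusted p = 2.13e-07) in mdx. Ebp (ENSMUSG00000031168, chromosome X, 8051568 to 8059751), the sterol isomerase a few steps earlier, measured 21.4, 21.8 and 20.8 CPM in C57 myotubes and 14.0, 15.0 and 14.9 CPM in C57 fibroblasts. Its mdx values were 23.1, 23.4 and 24.1 CPM and 16.1, 15.4 and 16.3 CPM, again without overlap, and the log2 change was 0.58 ± 0.07 in C57 and 0.58 ± 0.07 in mdx (edgeR, adjusted p = 9.56e-06 and 1.21e-05). Sc5d, the desaturase acting between Ebp and Dhcr7, was lower in myotubes, with a log2 change of -0.39 ± 0.10 in C57 and -0.28 ± 0.10 in mdx, so neighbouring steps of the same pathway differed in direction. The mdx call of Sc5d is not firm, since 3 of 6 fits with a single library left out lost it (edgeR, adjusted p up to 0.0786).

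Among the regulators, Insig2, which retains Scap, was the only one higher in myotubes. It measured 66.4, 57.9 and 58.1 CPM in C57 myotubes against 49.8, 51.3 and 51.3 CPM in fibroblasts, and 59.3, 53.5 and 60.9 against 47.4, 46.8 and 51.2 CPM in mdx. The groups did not overlap, and the log2 change was 0.30 ± 0.08 in C57 and 0.27 ± 0.08 in mdx (edgeR, adjusted p = 0.00296 and 0.00563). Insig1, its relative and itself an SREBP target, was lower, at 65.6, 72.7 and 72.5 CPM in C57 myotubes against 84.2, 121 and 124 CPM in fibroblasts. In mdx its values were 67.9, 89.6 and 82.1 CPM in myotubes against 96.6, 126 and 139 CPM in fibroblasts, and the groups did not overlap in either strain. The log2 change of Insig1 was -0.60 ± 0.17 and -0.58 ± 0.17, so the 2 Insig genes moved in opposite directions in both strains.

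Srebf1 was lower in myotubes without overlap. Its levels were 48.3, 52.7 and 52.2 CPM in C57 myotubes and 125, 124 and 132 CPM in C57 fibroblasts, and in mdx 58.6, 64.5 and 54.9 against 128, 130.1 and 129.9 CPM (log2 change -1.28 ± 0.07 and -1.11 ± 0.07; edgeR, adjusted p = 3.05e-09 and 1.38e-08). Srebf2, the sterol-side factor, did not pass in either strain. Its C57 levels were 203, 199 and 200.0 CPM in myotubes and 171, 215 and 217 CPM in fibroblasts, with overlap, and its mdx levels 169, 189 and 195 against 208, 211 and 219 CPM (log2 change 0.03 ± 0.09 and -0.19 ± 0.09). Scap, the escort, was lower in C57, with 66.6, 70.4 and 65.6 CPM in myotubes against 82.1, 82.0 and 81.5 CPM in fibroblasts (log2 change -0.24 ± 0.05; edgeR, adjusted p = 0.00131). In mdx its values were 74.2, 77.4 and 70.9 against 79.9, 79.4 and 80.2 CPM, with a log2 change of -0.09 ± 0.05 (edgeR, adjusted p = 0.161), and the difference between strains did not pass (edgeR, adjusted p = 0.471).

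Of the 7 mevalonate and isoprenoid genes, 5 were lower in myotubes in each strain and 0 higher. Among these 5, Fdps, Acat2 and Idi1 share much sequence with other genes, as given above, so their changes are uncertain too. With a single library left out, the log2 change of Fdps was -1.38 to -1.01 in C57 and -1.75 to -1.56 in mdx. Acat2, which joins acetyl-CoA units, changed by -1.21 ± 0.11 in C57 and -1.04 ± 0.11 in mdx on the log2 scale, and the mevalonate kinase Mvk by -0.78 ± 0.11 and -0.77 ± 0.11. Hmgcs1, the synthase before the committed step, showed a smaller difference of -0.33 ± 0.11 and -0.40 ± 0.11. Its C57 call is not firm, since 3 of 6 fits with a single library left out lost it (edgeR, adjusted p up to 0.0760). The 2 members that did not pass were the next enzymes in line, Pmvk (0.28 ± 0.15 and 0.17 ± 0.15) and Mvd (0.00 ± 0.11 and -0.18 ± 0.11). Of the 12 squalene and sterol genes, 10 were lower and 2 higher in each strain. Among the lower ones, the largest differences after Lss were in Stard4 (-1.58 ± 0.20 and -1.64 ± 0.21), which carries sterols between membranes, and in the squalene epoxidase Sqle (-1.25 ± 0.14 and -1.13 ± 0.14). The smallest difference among them in C57 was in the squalene synthase Fdft1, at -0.22 ± 0.09, against -0.35 ± 0.09 in mdx. The C57 call of Fdft1 is not firm. It was lost in 4 of 6 fits with a single library left out (edgeR, adjusted p up to 0.154), and DESeq2 gave an adjusted p of 0.0632.

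Lss (ENSMUSG00000033105, chromosome 10, 76367422 to 76392972), the cyclase that makes lanosterol, measured 10.4, 17.7 and 13.6 CPM in C57 myotubes against 47.9, 69.4 and 70.7 CPM in fibroblasts. In mdx the values were 19.3, 22.2 and 15.2 against 61.3, 64.3 and 69.3 CPM, and in both strains no myotube library reached a fibroblast library. The log2 change was -2.13 ± 0.21 in C57 and -1.76 ± 0.20 in mdx (edgeR, adjusted p = 2.20e-06 and 1.18e-05). Thus Lss and Dhcr7, enzymes of one pathway, stood at opposite ends of the 12 sterol genes. On the fatty acid side, Elovl6 (ENSMUSG00000041220, chromosome 3, 129326004 to 129432144), which lengthens palmitate, showed the furthest fall of all members, from 53.6, 64.7 and 63.0 CPM in C57 fibroblasts to 5.92, 12.6 and 11.1 CPM in myotubes. Its mdx levels were 59.5, 62.7 and 61.9 CPM in fibroblasts and 14.9, 18.2 and 9.54 CPM in myotubes. The log2 change was -2.57 ± 0.26 and -2.09 ± 0.25 (edgeR, adjusted p = 4.96e-06 and 2.63e-05).

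The desaturase Scd1 (ENSMUSG00000037071, chromosome 19, 44382894 to 44396318), which introduces the first double bond into saturated fatty acids, measured 18.4, 35.0 and 36.2 CPM in C57 myotubes and 121, 145 and 142 CPM in C57 fibroblasts. In mdx it measured 29.9, 48.8 and 34.8 CPM and 112, 124 and 118 CPM. Myotubes lay below fibroblasts throughout, with a log2 change of -2.15 ± 0.24 and -1.63 ± 0.24 (edgeR, adjusted p = 1.49e-05 and 0.000131). The other desaturases were lower too, with a log2 change of -0.89 ± 0.09 and -0.71 ± 0.09 for Scd2. Fads1 and Fads2, which build polyunsaturated fatty acids, changed by -1.43 ± 0.11 and -1.64 ± 0.22 in C57, and Fads2 by -1.19 ± 0.22 in mdx, where Fads1 was also lower. Acly, Acaca and Fasn, the enzymes that take citrate to palmitate, changed by -1.19 ± 0.12, -1.04 ± 0.06 and -1.21 ± 0.13 in C57. In mdx the same 3 genes differed by -0.81 ± 0.12, -0.75 ± 0.06 and -0.90 ± 0.13. The change between cell types differed between strains for 0 of 32 members (edgeR; 3 at an unadjusted p below 0.05; 0 by DESeq2), against 0.00574% of all genes by edgeR and 2.08% by DESeq2. The difference was positive, a smaller gap in mdx, for all 8 fatty acid synthesis and desaturase genes, none of which passed. The comparison of strains in vehicle myotubes below uses the same myotube libraries, so it is not a separate observation. Fibroblast markers summed to 345, 1098 and 757 CPM in these C57 myotubes and to 1076, 3616 and 1410 CPM in mdx. Their part in the smaller gap was not tested.

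Other genes of the pathway were mixed in this comparison. Of 26 further lipid synthesis and uptake genes tied to SREBPs, 25 were tested in C57, and 9 were higher and 14 lower in myotubes, against 37.5% and 37.2% of all genes. Among those with the smallest adjusted p were Acsl3, a fatty acid activating enzyme (3.54 ± 0.11), Gpam, which starts glycerolipid assembly (1.69 ± 0.08), and Acacb, the carboxylase isoform of muscle (3.12 ± 0.16), all higher, and the malic enzyme Me1, which was lower (-1.04 ± 0.06). Acacb thus lay opposite to its relative Acaca. Of 13 genes of SREBP processing and sterol-regulated degradation, 6 were higher and 5 lower, shares not far from those of all genes, among them the deubiquitinase Usp20 (1.46 ± 0.11) and Mbtps1, a protease that cleaves SREBPs (-1.65 ± 0.11). Of 10 liver X receptor, sterol export and oxysterol genes, 1 was higher and 6 lower, led by the sterol exporter Abca1 (-1.85 ± 0.17) and by Mylip (-1.51 ± 0.20), a ligase for lipoprotein receptors.

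Aldosterone was compared with vehicle in myotubes of each strain. The clearest difference among the members was a lower level of Dhcr7, alongside a smaller difference in Ebp. The other 10 squalene and sterol genes did not pass, with changes in the mean of both strains, paired by culture, from -0.02 (Nsdhl) to 0.13 (Hsd17b7). Without use of the culture numbers, 0 of 32 members passed in C57, in mdx or in their mean (edgeR; 2 at an unadjusted p below 0.05 in each), against 0.0127%, 0% and 0.216% of the 15763 genes tested. DESeq2, also unpaired, called 1, 0 and 1, against 0.362%, 0.121% and 1.07%. The labels give replicate numbers and do not say that vehicle and aldosterone libraries of a number shared a culture. Libraries with the same number deviated together in myotubes, so they were paired by number in a further fit. Each such pair is called a culture here, a reading on which the paired results rest. In that paired fit 1 member was lower in C57 and 1 in mdx, and in the mean of both strains 2 were lower and 1 higher. The paired background was 2.46% lower and 2.52% higher in C57, 1.32% and 1.01% in mdx, and 4.56% and 4.4% in the mean. Among 32 members, counts this small are not far from those shares.

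**Figure D2:**
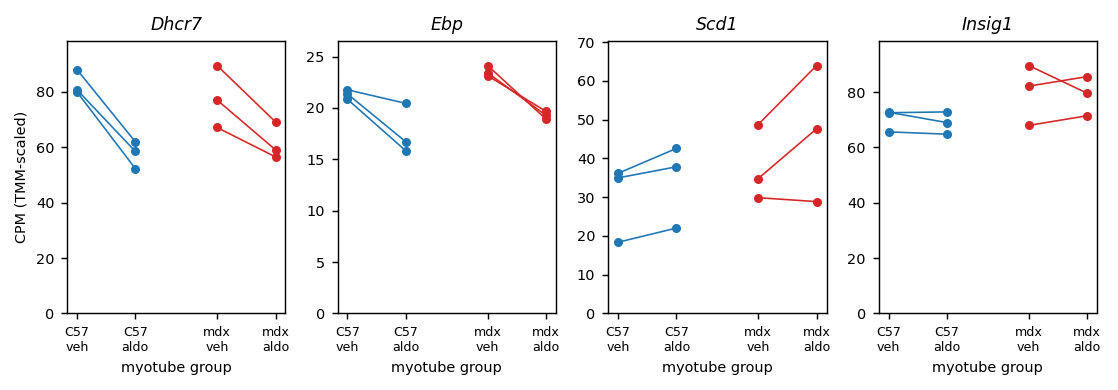
TMM-scaled CPM of Dhcr7, Ebp, Scd1 and Insig1 in myotube cultures; each line joins the vehicle (veh) and aldosterone (aldo) library of one culture, blue for C57 and red for mdx. The line slopes down in all 6 cultures for Dhcr7 and Ebp and up in 5 of 6 for Scd1, whereas for Insig1 it slopes up in 3.

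Dhcr7 was 88.1, 80.0 and 80.8 CPM in C57 vehicle cultures 1 to 3 and 62.0, 52.3 and 58.5 CPM with aldosterone. In mdx it went from 67.2, 77.1 and 89.5 CPM to 56.5, 59.1 and 69.2 CPM. It was lower with aldosterone in 6 of 6 cultures; the C57 groups did not overlap, and the mdx groups did. In the paired fit the log2 change was -0.52 ± 0.06 in C57 (edgeR, adjusted p = 6.09e-06), -0.34 ± 0.06 in mdx (0.00257) and -0.43 ± 0.04 in the mean (2.99e-07). Unpaired edgeR gave nearly the same change with an adjusted p of 0.278, 1 and 0.0590. The DESeq2 calls in C57 and in the mean were both Dhcr7 (adjusted p = 0.0166 and 0.000544). The mdx call was lost without mdx culture 2 (edgeR, adjusted p = 0.0863) or culture 3 (0.0756). Even with aldosterone, every myotube library, at 52.3 to 69.2 CPM, stayed above every fibroblast library, at 19.7 to 27.5 CPM. The summed level of the 8 myotube markers was also lower with aldosterone in 5 of 6 cultures, all but C57 culture 2. It was 31362, 27965 and 28309 CPM with vehicle and 29514, 29020 and 26677 CPM with aldosterone in C57, and 20208, 23465 and 28578 against 18812, 19837 and 28341 CPM in mdx; its part in the Dhcr7 difference was not tested.

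Ebp was 21.4, 21.8 and 20.8 CPM in C57 vehicle cultures and 16.7, 20.4 and 15.8 CPM with aldosterone. In mdx the values were 23.1, 23.4 and 24.1 CPM and 19.7, 19.3 and 18.9 CPM. The groups did not overlap in either strain, and Ebp was lower in 6 of 6 cultures. Its paired log2 change in the mean was -0.28 ± 0.06 (edgeR, adjusted p = 0.00578; 0.212 unpaired), and it did not pass in C57 or mdx alone (0.0899 and 0.105). Groups did not overlap for 5 members in C57, all lower with aldosterone (Srebf1, Srebf2, Pmvk, Ebp and Dhcr7), against 7.54% of all genes, and 0 were higher, against 6.83%. In mdx 1 member was lower without overlap (Ebp, against 3.5%) and 2 were higher (Acat2 and Hsd17b7, against 3.04%).

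Scd1 went the other way. Its C57 values were 18.4, 35.0 and 36.2 CPM with vehicle and 22.0, 37.8 and 42.6 CPM with aldosterone. In mdx they were 29.9, 48.8 and 34.8 CPM and 28.9, 64.0 and 47.6 CPM. The groups overlapped in both strains, and 5 of 6 cultures were higher with aldosterone, all but mdx culture 1. The paired log2 change in the mean was 0.23 ± 0.06 (edgeR, adjusted p = 0.0134; 0.899 unpaired). With a single culture left out, it did not pass without culture 3 of C57 (0.0684), culture 2 of mdx (0.105) or culture 3 of mdx (0.111). The summed level of 8 adipocyte markers was higher with aldosterone in the same 5 of 6 cultures. In C57 this sum was 4.48, 10.98 and 7.77 CPM with vehicle and 5.44, 14.5 and 10.8 CPM with aldosterone. In mdx it was 6.94, 4.71 and 4.50 CPM and 5.62, 7.71 and 8.99 CPM. This adipocyte sum rested on few genes, since 3 to 6 of the 8 had no counts in each myotube group. Endothelial and proliferation marker sums were also higher with aldosterone in those 5 cultures. The endothelial sum was 77.9, 174 and 135 CPM with vehicle and 105, 233 and 149 CPM with aldosterone in C57. For mdx it was 30.1, 35.4 and 40.8 CPM and 29.1, 57.1 and 66.9 CPM. The part of adipocyte RNA or of these other differences in the Scd1 difference was not tested. The other 3 desaturases and the 4 fatty acid synthesis genes did not pass, with paired changes in the mean from -0.08 (Fads1) to 0.27 (Elovl6).

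The regulators did not pass in any of these fits. In the paired mean, the log2 change was -0.09 ± 0.05 for Srebf1, -0.10 ± 0.04 for Srebf2, 0.05 ± 0.05 for Scap, -0.02 ± 0.04 for Insig1 and 0.02 ± 0.05 for Insig2. Srebf1 with aldosterone measured 45.9, 45.3 and 47.5 CPM in C57 and 52.1, 66.4 and 56.5 CPM in mdx. Srebf2 with aldosterone measured 182, 170.2 and 195 CPM in C57 and 161, 171 and 199 CPM in mdx. For both, the C57 groups did not overlap with vehicle and the mdx groups did. Insig1 with aldosterone was 64.8, 69.0 and 72.8 CPM in C57 and 71.4, 79.6 and 85.6 CPM in mdx, overlapping with vehicle in both. Scap with aldosterone measured 79.0, 60.8 and 71.6 CPM in C57 and 75.6, 80.0 and 73.5 CPM in mdx. Insig2 with aldosterone measured 57.1, 65.3 and 61.1 CPM in C57 and 61.1, 59.7 and 56.1 CPM in mdx, and for both genes the groups overlapped with vehicle. The effect of aldosterone differed between strains for 0 of 32 members, unpaired or paired (edgeR; 0 at an unadjusted p below 0.05 in the unpaired fit; 0 by DESeq2), against 0%, 0.0444% and, by DESeq2, 0% of all genes.

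Of the further lipid synthesis and uptake genes, 2 of the 25 tested were higher and 0 lower in the paired mean, against 4.4% and 4.56% of all genes. These were Acss2, which makes acetyl-CoA from acetate (0.40 ± 0.05; edgeR, adjusted p = 3.41e-06), and Mid1ip1, a partner of acetyl-CoA carboxylase (0.19 ± 0.04; 0.00352). Acss2 also passed in each strain, at 0.55 ± 0.07 in C57 and 0.26 ± 0.07 in mdx. Of the 13 processing and degradation genes 1 was higher, Rnf145 (0.17 ± 0.05). Of the 10 liver X receptor and export genes 2 were lower, Abca7 (-0.27 ± 0.06) and the receptor Nr1h2 (-0.14 ± 0.04). Without pairing, 0 genes of these 3 lists passed by edgeR, and DESeq2 called 1 in the mean. The unpaired shares of all genes in the mean were 0.216% and 1.07%.

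The strains were then compared within each treatment in myotubes. The 8 fatty acid synthesis and desaturase genes all had a higher mean in mdx, whereas the mevalonate genes had medians near 0. No member passed: 0 of 32 with vehicle (edgeR; 4 at an unadjusted p below 0.05; 0 by DESeq2) and 0 of 32 with aldosterone (6 and 0), against 0.362% and 0.311% of all genes by edgeR and 2.39% and 2.91% by DESeq2. The change was positive for 25 members with vehicle and 24 with aldosterone, with medians of 0.15 and 0.16, against 0.00 and -0.02 over all genes. Medians by role with vehicle were 0.41 for fatty acid synthesis, 0.34 for the desaturases, 0.12 for the regulators, 0.11 for the squalene and sterol steps and -0.04 for the mevalonate steps. With aldosterone they were 0.31, 0.36, 0.10, 0.13 and 0.00. Both comparisons use separate libraries, but vehicle and aldosterone libraries of a number deviated together and are read here as the same culture.

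**Figure D3:**
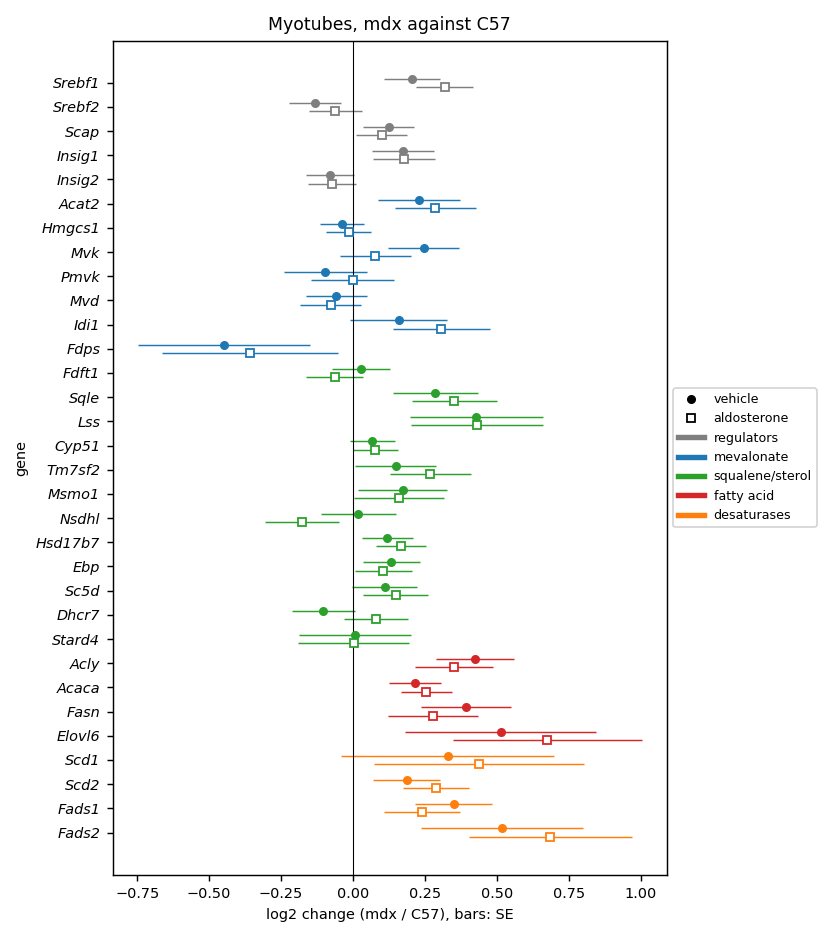
Log2 change of the 32 members in mdx against C57 myotubes, with bars for the standard error; filled circles are vehicle, open squares aldosterone, and colours are roles. All 8 fatty acid synthesis and desaturase genes lie to the right of 0 in both, with none passing the test.

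Acly was 99.0, 128 and 127 CPM in C57 vehicle myotubes and 169.5, 175 and 134 CPM in mdx, and 114, 117 and 143 against 168, 169 and 146 CPM with aldosterone. The groups did not overlap under either treatment, with log2 changes of 0.42 ± 0.14 and 0.35 ± 0.14 (edgeR, adjusted p = 0.222 and 0.258). Fads2 was 16.8, 26.8 and 26.6 CPM in C57 and 27.0, 45.5 and 28.9 CPM in mdx with vehicle, and 15.8, 24.5 and 25.9 against 28.7, 45.9 and 33.3 CPM with aldosterone. Again the groups did not overlap, and mdx culture 2 was highest. The Fads2 change was 0.52 ± 0.28 and 0.69 ± 0.28 (edgeR, adjusted p = 0.423 and 0.285). Groups did not overlap for 7 members higher in mdx with vehicle (Srebf1, Scap, Ebp, Acly, Acaca, Fads1 and Fads2, against 11.2% of all genes) and for 1 lower (Srebf2, against 8.31%). With aldosterone 9 were higher (Srebf1, Acat2, Sqle, Cyp51, Tm7sf2, Hsd17b7, Acly, Acaca and Fads2, against 11.4%) and 0 lower (against 6.84%).

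The summed level of fibroblast markers was higher in mdx as well, and in part it moved with the desaturases. The 4 desaturases together measured 330, 396 and 382 CPM in C57 vehicle cultures 1 to 3, where fibroblast markers summed to 345, 1098 and 757 CPM. In mdx vehicle cultures they measured 419, 505 and 398 CPM, with fibroblast markers at 1076, 3616 and 1410 CPM. With aldosterone the desaturases summed to 314, 345 and 406 CPM in C57 and 388, 523 and 440.5 CPM in mdx, and the markers to 386, 706 and 779 CPM and to 944, 3675 and 1977 CPM. The library with most fibroblast marker RNA thus also had the most desaturase RNA in each of the 4 myotube groups. The rest of the order was not always shared: mdx vehicle culture 1 was below culture 3 in the markers and above it in the desaturases. For the 4 fatty acid synthesis genes the highest library was not shared in every group: in mdx vehicle cultures 1 to 3 they summed to 475, 472 and 348 CPM, highest where the markers were lowest. Among the markers, Lum was at 0 to 0.102 CPM in C57 myotubes and 0.131 to 4.64 CPM in mdx, and Col1a1 at 172 to 544 CPM and 716 to 2131 CPM. The share of fibroblast RNA in the strain difference was not tested.

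**Figure D4:**
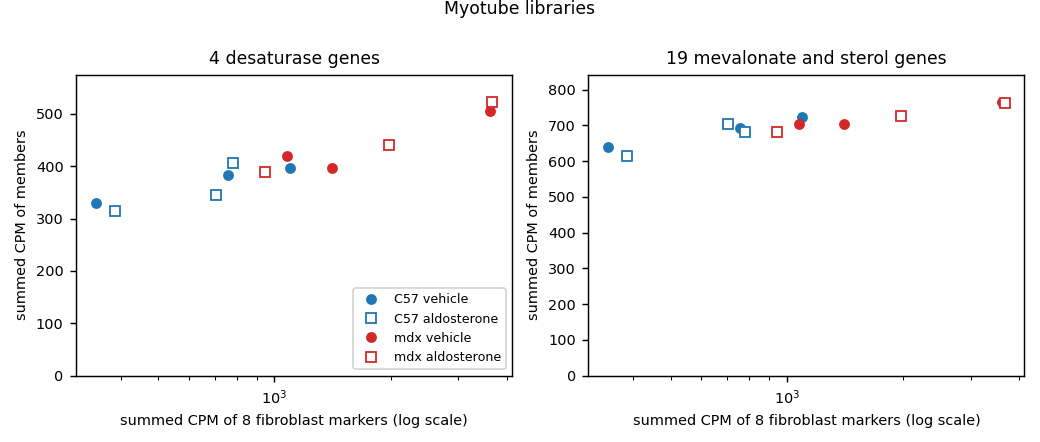
Summed CPM of the 4 desaturases (left) and of the 19 mevalonate and sterol genes (right) in each myotube library, against the summed CPM of 8 fibroblast markers on a log axis; blue is C57, red mdx, filled circles vehicle and open squares aldosterone. The mdx libraries of culture 2 lie at the upper right of both panels, at 505 and 523 CPM of desaturases.

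Fibroblasts on aldosterone medium were compared with fibroblasts on vehicle medium. Most members had a slightly higher mean with aldosterone medium, the sterol genes most evenly, but no member passed in C57, in mdx or in the mean of both (edgeR, 0 of 32 in each; 1, 0 and 5 at an unadjusted p below 0.05; 0 by DESeq2 in each). The background was 0%, 0% and 0.012% of 16671 genes by edgeR, and 0.444%, 0% and 1.76% by DESeq2. The change was positive for 26 members in C57, 30 in mdx and 29 in the mean, against 49.4%, 50.81% and 50.27% of all genes. The medians were 0.16, 0.12 and 0.14, against 0.00 over all genes in each. All 7 mevalonate genes and all 12 squalene and sterol genes were positive in both strains. The 4 fatty acid synthesis genes had medians of -0.04 in C57 and 0.02 in mdx.

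**Figure D5:**
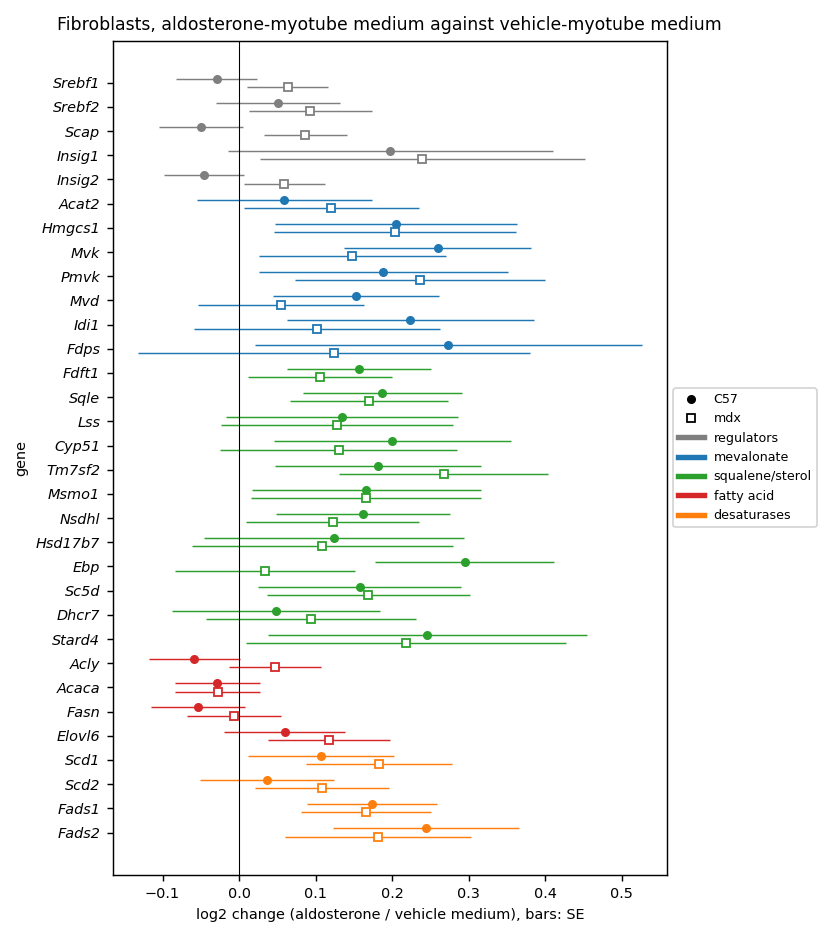
Log2 change of the 32 members in fibroblasts on aldosterone medium against vehicle medium, with bars for the standard error; filled circles are C57, open squares mdx, and colours are roles. The 19 mevalonate and sterol genes lie to the right of 0 in both strains, and Acaca and Fasn lie left of it in both; none passed the test.

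The sum of the 19 mevalonate and sterol genes was 826, 1086 and 1098 CPM in C57 fibroblasts on vehicle medium and 1141, 1019 and 1240 CPM on aldosterone medium. In mdx it was 1010.1, 1063 and 1141 CPM on vehicle medium and 1188, 1033 and 1383 CPM on aldosterone medium. The groups overlapped in both strains, and C57 vehicle replicate 1 and mdx aldosterone replicate 2 were the low libraries of their groups. These 2 libraries also held the most myotube marker RNA of the fibroblasts, 81.6 and 104 CPM, against 11.4 to 42.5 CPM in the others. Proliferation markers were higher on aldosterone medium without overlap in C57, whereas the mdx groups overlapped. Their sum was 281 to 296 CPM in C57 on vehicle medium and 347 to 372 CPM on aldosterone medium, and 330 to 466 against 420 to 464 CPM in mdx. Fibroblast markers in C57 summed to 11982 to 17283 CPM on vehicle medium and 16880 to 20665 CPM on aldosterone medium. In mdx they summed to 12910 to 15460 and 12143 to 17924 CPM, so the groups overlapped in both strains. The part of these differences in the member levels was not tested.

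Mvk was 27.2, 32.9 and 34.7 CPM in C57 on vehicle medium and 36.1, 35.5 and 41.8 CPM on aldosterone medium, without overlap. In mdx it was 33.7, 39.2 and 38.0 against 41.1, 35.0 and 48.5 CPM, with overlap, and its log2 change in the mean was 0.20 ± 0.09 (edgeR, adjusted p = 0.300). Fads2 was 62.1, 86.1 and 77.0 CPM against 87.0, 88.1 and 91.7 CPM in C57 and 74.5, 84.1 and 74.8 against 95.1, 75.4 and 97.6 CPM in mdx, with a change of 0.21 ± 0.09 in the mean (0.286). Ebp was 14.0, 15.0 and 14.9 CPM in C57 on vehicle medium and 18.5, 17.9 and 17.5 CPM on aldosterone medium, without overlap but not passing (change 0.29 ± 0.12; edgeR, adjusted p = 0.379). In mdx Ebp was 16.1, 15.4 and 16.3 against 15.2, 14.0 and 20.4 CPM, with overlap (change 0.03 ± 0.12). Dhcr7 in fibroblasts on aldosterone medium was 24.8, 24.6 and 23.7 CPM in C57 and 24.6, 21.2 and 27.5 CPM in mdx, overlapping with the vehicle medium values in both. Groups did not overlap for 4 members in C57 (Mvk, Ebp, Fads1 and Fads2, all higher, against 10.9% of all genes; 0 lower, against 10.6%) and for 1 in mdx (Srebf1, higher, against 5.22%; 0 lower, against 3.65%).

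Without the library of mdx aldosterone replicate 2, the mean of both strains gave 2 members higher, Scd1 (log2 change 0.20, edgeR, adjusted p = 0.0266) and Fads2 (0.27, 0.0485), and 0 lower, against 2.79% of the genes tested in each direction. In another fit, with libraries matched by number and with both the vehicle and the aldosterone library of mdx replicate 2 left out, 6 members were higher: Mvk (0.28), Fdft1 (0.17), Sc5d (0.23), Scd1 (0.22), Fads1 (0.22) and Fads2 (0.30), with adjusted p from 0.003 to 0.0452 (edgeR), against 5.36%, and 0 were lower, against 5.28%. Of all exclusions tried, these gave the most calls. Leaving out a single library gave 0 to 2 members higher over 12 fits, and leaving out a replicate from the matched fit gave 0 to 6 over 6 fits. The named calls therefore hold only for the exclusions that gave the most, and 0 passed with all libraries, matched or not. Same-numbered libraries deviated together in mdx fibroblasts and not in C57 fibroblasts. The effect of the medium differed between strains for 0 of 32 members (edgeR; 0 at an unadjusted p below 0.05; 0 by DESeq2), against 0% of all genes by either tool.

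The regulators did not pass in fibroblasts. On aldosterone medium, Srebf1 was 129.6, 127 and 118 CPM in C57 and 142, 132 and 136 CPM in mdx. Srebf2 was 205, 203 and 217 CPM and 240.0, 215 and 234 CPM, and Scap 83.8, 77.0 and 76.6 CPM and 89.5, 87.7 and 79.8 CPM. Insig1 ranged over 102 to 169 CPM in the aldosterone medium libraries and 84.2 to 139 CPM in the vehicle medium libraries. Insig2 on aldosterone medium measured 48.9 to 52.0 CPM. In the mean of both strains the 3 lists of further pathway genes gave 0 calls by edgeR, against 0.012% of all genes. DESeq2 called 1 of them higher and 1 lower, against 1.76% of all genes in either direction.

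Between strains, fibroblasts gave 0 of 32 calls on either medium (edgeR; 0 and 2 at an unadjusted p below 0.05; 0 by DESeq2), against 1.1% and 1.23% of all genes by edgeR and 2.85% and 3.26% by DESeq2. The change from C57 to mdx was positive for 22 members on vehicle medium and 24 on aldosterone medium, with medians of 0.05 and 0.06. The desaturases, positive in mdx myotubes, had medians of -0.05 in mdx fibroblasts on both media, with Scd1 at -0.20 ± 0.10 on vehicle medium. Groups did not overlap for 3 members higher and 1 lower in mdx on vehicle medium (Idi1, Nsdhl and Ebp; Scap), against 7.35% and 9.51% of all genes. On aldosterone medium they did not overlap for 3 higher and 1 lower (Srebf1, Insig2 and Acly; Acaca), against 10.7% and 9.09%.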

How the data were processed

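Poly(A) RNA of 24 libraries was sequenced from a non-directional kit, per the labels' protocols. The deposited values are whole-number read counts per gene, made by the authors with featureCounts 1.5.0-p3 on mm39, per the submitters' processing notes; neither aligner nor annotation was given in the sources used here. FPKM values were not used, and 0 columns of the table had no sample. Counts were tested in R 4.3.3 with edgeR 4.0.16: default filter on low counts, TMM scaling, quasi-likelihood test, and Benjamini-Hochberg adjustment over all genes kept (15763 in myotubes, 16671 in fibroblasts, 17435 in vehicle libraries of both). The threshold was an adjusted p of 0.05. The 12 libraries of a cell type, or the 12 vehicle libraries, were fitted together, and the SE is the log2 change divided by the square root of F. Only the unpaired edgeR test was run on simulated counts, drawn independently for each library. The paired fit was not checked in this way.

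Same-numbered libraries correlated in their deviations from the group means at 0.36 to 0.70 in C57 and 0.48 to 0.67 in mdx myotubes between treatments, so a fit with the replicate block is given beside those results. Levels are counts per TMM-scaled library size (CPM) over all 24 libraries. Shared sequence was counted as 50-base stretches of GENCODE M21 transcripts. Alternatives were DESeq2 1.42.0, other size factors, no filter, only the groups compared, and each replicate left out. The named genes were every member by role, those passing in any fit, the regulators, the 3 furthest each way between cell types and, of other lists, up to 4 by adjusted p; examples beyond these were chosen after their values were seen. Members and lists were chosen with earlier results of these data known.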

Additional observations from a re-analysis of the deposited data

How the results depend on the processing

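In myotubes against fibroblasts the members passing stayed at 3 higher, and at 24 to 26 lower in C57 and 23 to 25 in mdx, over all alternatives; Fdft1 and Hmgcs1 (C57) and Tm7sf2 and Sc5d (mdx) lost their call in at least 1. For aldosterone in myotubes, where 0 passed unpaired, 1 was lower in C57 and 1 in the mean with DESeq2 and also with no filter; with the replicate block, 1 was lower in C57, 1 in mdx and 2 in the mean, and 1 was higher in the mean. Leaving out 1 library gave 0 to 1 lower in the mean; with the block, leaving out 1 culture gave 1 to 2 lower in C57, 0 to 1 lower and 0 to 1 higher in mdx, and 2 lower and 0 to 2 higher in the mean. With the block 1 member (Fads2, adjusted p = 0.0315 by edgeR) was higher in mdx myotubes with aldosterone, although numbers did not pair strains (correlations -0.16 to 0.33). In fibroblasts leaving out 1 library gave 0 to 2 higher in the mean; with the block, 0 to 6 in the mean and 0 to 1 in mdx. Numbers correlated at -0.02 to 0.12 in C57 fibroblasts and 0.11 to 0.30 in mdx fibroblasts. The block changed no other count of members called by over 1.5 times. No member changed direction where it had passed. The causes were not tested. With 3 libraries a group, small changes such as those in fibroblasts were not resolved at this depth and spread.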
